A study of Rattus norvegicus with 24 samples.

Results

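Genes whose hippocampal transcript level was lower after corticosterone in nearly every comparison of libraries formed a short list of 12, out of 13796 genes that averaged at least 1 CPM (counts per 1e6 counts in genes) and 32883 gene identifiers in all. The members were chosen by their measured levels. A gene entered when a corticosterone library exceeded a vehicle library in at most 8% of the 144 pairs formed by 12 corticosterone and 12 vehicle libraries. In all 13 genes met this limit, or 0.0942% of the 13796. One of them, the glucocorticoid receptor gene Nr3c1, is left out by name, which gives the 12. Because these levels chose the genes, the corticosterone difference of the members is given as a description and supports nothing by itself.

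Hippocampal messenger RNA was sequenced from male Sprague-Dawley rats in a 2 by 2 design of training and treatment. Untrained rats gave 7 vehicle and 6 corticosterone libraries, and trained rats gave 5 and 6. The labels give no task, dose, sampling time, age or batch, and they do not say that each library came from its own rat. The spread behind the p-values is that between libraries, which may be technical. One library, sample 41, is labelled untrained vehicle but its column stands among the trained vehicle columns, and it was kept as labelled. Counted by column position, the groups would be of equal size. Sample 41 was left out in one of the alternative fits, but no fit moved it to trained vehicle.

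Corticosterone, the main glucocorticoid of the rat, crosses into neurons and glia and binds the mineralocorticoid and the glucocorticoid receptor, both of which are abundant in the hippocampus. The bound receptors enter the nucleus, where they raise the transcription of some genes by binding DNA directly and lower that of others, in part by interfering with other transcription factors. Glucocorticoids released around learning are known for strengthening the consolidation of memory, which is the question the study addresses. The count table does not pair its identifiers with gene names, and none (0) of the 47357 genes of the reference table carries an Ensembl identifier. The members therefore have no name, function, promoter or protein here, and cell type markers were not analysed. They are numbered 1 to 12 by increasing share of pairs, and only members 1 and 2 are given by identifier.

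The members were of ordinary abundance. Their mean levels ran from 2.59 CPM (member 6) to 150 CPM (member 8), with a median of 35.8 CPM, against a median of 24.6 CPM over all 13796 genes. Member 6 stood at percentile 9.78 and member 8 at percentile 90.3 of these genes. In bulk tissue, fewer cells of a type and less RNA per cell cannot be told apart, so these are levels of the whole dissection. Raw counts were as low as 17 reads for member 6 and as high as 3027 reads for member 8. Summed per library, the members took up 585 ± 42.9 CPM (SD, n = 7) with vehicle and 489 ± 24.99 CPM (SD, n = 6) with corticosterone when untrained. When trained, the sums were 567 ± 26.7 CPM (SD, n = 5) with vehicle and 468 ± 26.5 CPM (SD, n = 6) with corticosterone.

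**Figure D1:**
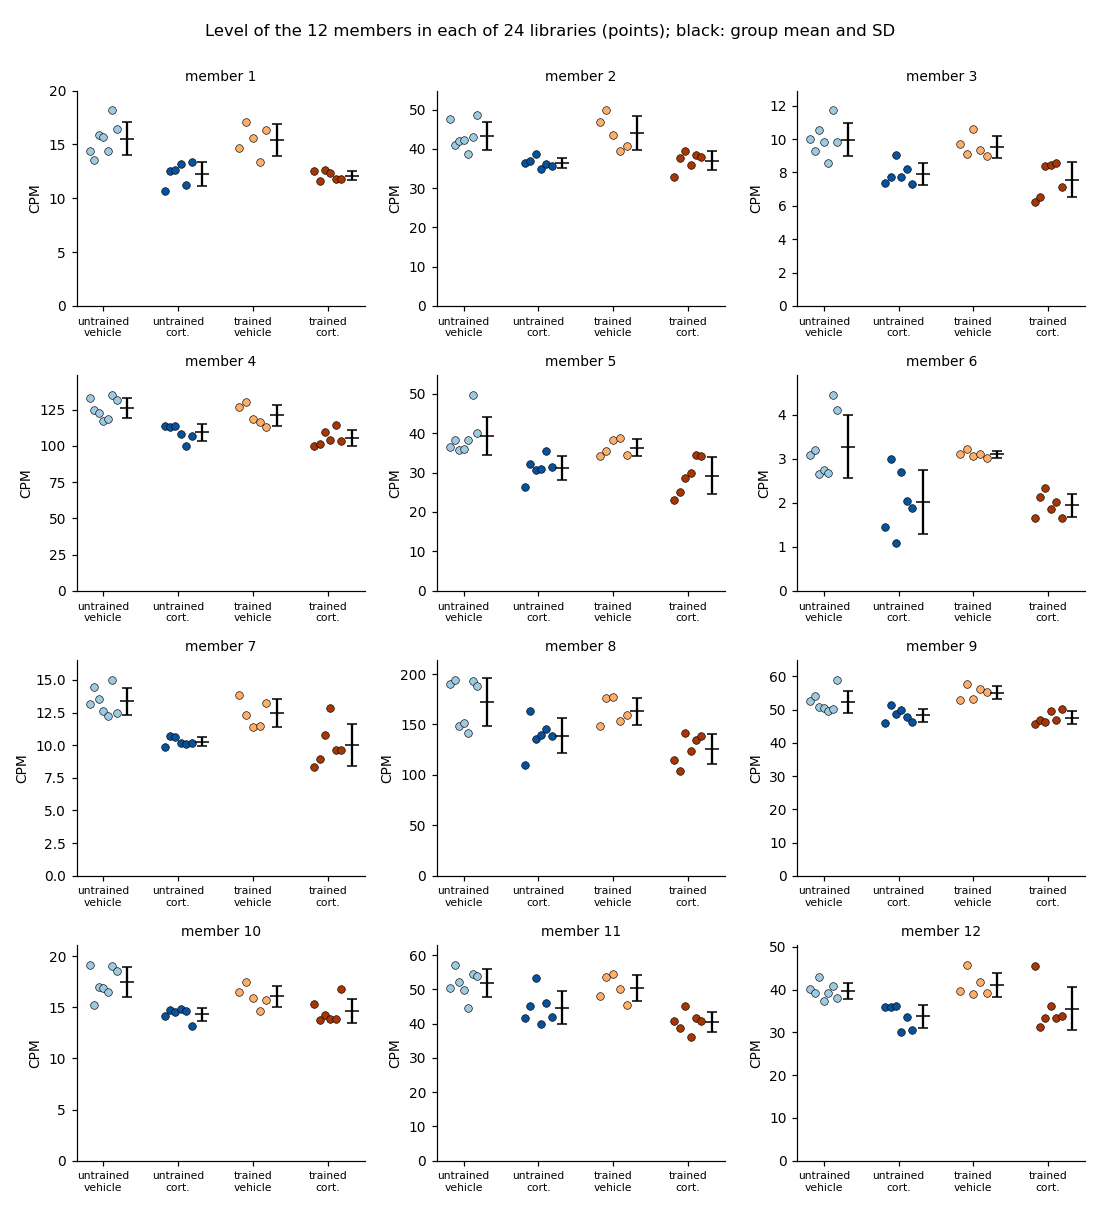
Level in CPM (vertical axes, from 0) of each of the 12 members in the 4 groups; each point is 1 library, and the black mark is the group mean with its SD. The steps are small against the level: with corticosterone the mean of member 9 fell by 10.4% and that of member 6 fell by 38.1%, with the other members between.

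Member 1, ENSRNOG00000024207, came closest to full separation together with member 2. Its lowest, median and highest levels were 13.6, 15.7 and 18.2 CPM in untrained vehicle and 10.7, 12.5 and 13.4 CPM in untrained corticosterone libraries. In trained vehicle libraries it was at 14.7, 17.1, 15.6, 13.3 and 16.4 CPM, and in trained corticosterone libraries the lowest, median and highest were 11.6, 12.1 and 12.6 CPM. The groups did not overlap within either training state, and the single reversed pair of 144 set untrained corticosterone replicate 39 against trained vehicle replicate 25. The mean fell by 21.2% over both states (log2 fold change -0.35, SE 0.05).

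Member 2, ENSRNOG00000014265, also had 1 reversed pair. It was at 38.7, 42.1 and 48.6 CPM (lowest, median, highest) in untrained vehicle and at 34.8, 36.3 and 38.6 CPM in untrained corticosterone libraries. The 5 trained vehicle libraries held 46.8, 49.9, 43.5, 39.4 and 40.6 CPM, and the trained corticosterone libraries 32.7, 37.8 and 39.4 CPM. Again the groups were apart within each state, though the nearest trained vehicle and trained corticosterone libraries differed by under 1 CPM. The mean fell by 15.8% (log2 fold change -0.25, SE 0.04).

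The largest relative step belonged to the least abundant member. Member 6 went from 3.27 ± 0.722 CPM (SD, n = 7) to 2.02 ± 0.724 CPM (SD, n = 6) without training. With training it went from 3.10 ± 0.0788 CPM (SD, n = 5) to 1.94 ± 0.268 CPM (SD, n = 6). The log2 fold change over both states was -0.69 (SE 0.13). At its mean count, counting error alone gives a coefficient of variation of 15.9%. The 5 trained vehicle libraries, at 3.12, 3.22, 3.05, 3.11 and 3.02 CPM, agreed more closely than that, while the untrained corticosterone libraries ranged from 1.09 to 2.99 CPM and overlapped the untrained vehicle libraries, which began at 2.65 CPM.

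Members 3, 4 and 5 had between 3 and 4 reversed pairs. Member 3 fell from 9.79 ± 0.861 CPM in vehicle to 7.73 ± 0.850 CPM in corticosterone libraries (SD, n = 12 each), and member 4, one of the more abundant, from 124 ± 7.27 CPM to 107 ± 5.63 CPM (SD, n = 12 each). Member 5 fell from 38.0 ± 4.09 CPM to 30.2 ± 3.89 CPM (SD, n = 12 each), with one untrained vehicle library well above the rest at 49.6 CPM.

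In members 7 and 12, as in members 1 and 2, 1 corticosterone library made every reversed pair. Member 7 lay between 8.31 and 10.8 CPM in 11 corticosterone libraries, below all vehicle libraries (11.4 CPM or more), while trained corticosterone replicate 28 stood at 12.8 CPM. Member 12 lay between 30.1 and 36.2 CPM in 11 corticosterone libraries, below all vehicle libraries (37.4 to 45.8 CPM), while trained corticosterone replicate 3 stood at 45.4 CPM. Without that library the log2 fold change of member 12 was -0.27 (edgeR adjusted p = 0.000794), against -0.22 with it (edgeR adjusted p = 0.0418). That library made every reversed pair of member 12, so a smaller p without it was largely fixed in advance. The call of member 12 was lost in 18 of the 24 fits that left out 1 library, with edgeR adjusted p up to 0.102, while members 1 to 11 were called in all 24. The rule used this contrast, so these calls are a description only.

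The remaining members overlapped in more libraries. Member 8, the most abundant, fell from 172 ± 23.8 CPM (SD, n = 7) to 139 ± 17.4 CPM (SD, n = 6) when untrained. When trained it fell from 163 ± 13.04 CPM (SD, n = 5) to 126 ± 14.9 CPM (SD, n = 6). Member 9 had the smallest relative step, from 53.5 ± 3.02 CPM to 48.0 ± 1.89 CPM (SD, n = 12 each). Members 10 and 11 fell from 16.9 ± 1.45 CPM to 14.5 ± 0.919 CPM and from 51.2 ± 3.83 CPM to 42.5 ± 4.44 CPM (SD, n = 12 each).

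Within a training state, 7 of the 12 members separated corticosterone from vehicle libraries without overlap in untrained rats, and 7 did so in trained rats. The same separation held for 0.138% and 0.391% of the 13796 genes in these states. Nothing is read from the difference, since the same libraries chose the members. Members 1 and 2 separated in both states. Members 4, 5, 7, 10 and 12 separated only among untrained libraries as counted here, and members 3, 6, 8, 9 and 11 only among trained libraries. Whether separation differed between the states was not tested apart from the interaction of the fold changes given below.

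edgeR's quasi-likelihood test was fitted to 14838 genes with Benjamini-Hochberg adjustment. Genes with an adjusted p under 0.05 count as called. The test called all 12 members lower for corticosterone averaged over training, where 0.249% of all genes were called lower (37 genes). Leaving out single libraries gave 20 to 39 genes, with 11 or 12 of the members among them. The contrasts within each training state came from the same model of all 24 libraries. In the untrained contrast the test called 4 members (1, 4, 7 and 10), where 0.0337% of all genes were called lower. This count rested on single libraries, since it ranged from 0 to 6 members when one was left out (0 without untrained vehicle replicate 32 or 41, or untrained corticosterone replicate 29). DESeq2 called 8 members in untrained libraries, among 16 genes called lower (0.108% of genes with an adjusted p). In the trained contrast edgeR called 0 members, and 0% of all genes lower, with 3.4% lower at an unadjusted p under 0.05. DESeq2 called 15 genes lower in trained libraries (0.105% of genes with an adjusted p), 6 of them members. The rule used these contrasts, so nothing is read from the members' counts.

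Total counts per library, from 13760331 to 16765088, were not even across the groups. Their medians were 14119671 in trained vehicle and 15959963 in trained corticosterone libraries, against 15652584 and 15658834 in the untrained groups. With the log2 total count as a covariate, a fit chosen after seeing the data, 8 genes were called lower (0.0539%) and 6 of them were members (1, 2, 3, 4, 7 and 9). The log2 fold changes of the members then ran from -0.60 to -0.16, against -0.69 to -0.17 without the covariate, all in the same direction. The first principal component of log2 CPM carried 31.5% of the variance. Its group means were -6.48 and -8.46 in untrained and trained vehicle and 6.60 and 8.01 in untrained and trained corticosterone libraries. The treatments overlapped widely on this component, and every group held both negative and positive values. Vehicle libraries ran from -21.6 (trained) to 27.04 (untrained), and corticosterone libraries from -25.4 to 36.5 (both trained). With a first component computed after removing group means as a covariate, 74 genes were called lower (0.499%), all 12 members among them, with log2 fold changes from -0.69 to -0.17. Removing group means leaves this covariate unrelated to treatment, so it could hardly move the fold changes. Nothing is read from their staying the same or from these calls.

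The size of the fall was then compared between training states. The median log2 fold change over the members was -0.30 in untrained and -0.32 in trained libraries. The fall was larger in trained libraries for 6 members and larger in untrained libraries for the other 6, and the median difference was 0.00. This even split rested on single libraries: 3 to 8 members had the larger fall in trained libraries when one was left out, with 3 without untrained vehicle replicate 7 or 27. Over all genes tested the medians were also 0.00 in both states. The interaction, a contrast the rule did not select on directly, called 0 members and 0% of all genes (edgeR). At an unadjusted p under 0.05 it held 0 of 12 members against 4.27% of all genes (634 of 14838), and DESeq2 called 0 genes. The pair rule draws on both states, which favours genes with small differences between them.

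For the first 6 members the step was nearly the same in both states. Member 1 fell by 21.0% in untrained libraries and fell by 21.4% in trained ones, with an interaction of -0.01 on the log2 scale (95% interval -0.22 to 0.20). Member 2 fell by 15.8% and fell by 15.9%, with an interaction of 0.00 (95% interval -0.19 to 0.18). Member 6 fell by 38.2% and fell by 37.6%, but its interval was the widest, from -0.53 to 0.56. For 12 of 12 members this 95% interval stayed inside a 1.5-fold difference either way, against 73.2% of all genes. Nothing is read from that contrast, since the rule favours narrow groups and small differences between the states. The genes tested also include some under the 1 CPM that every member had to reach.

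Members 9, 10 and 11 had the smallest interaction p. Member 10 fell by 18% in untrained and fell by 9.0% in trained libraries, from 17.5 ± 1.46 to 14.3 ± 0.632 CPM (SD, n = 7 and 6) and from 16.1 ± 1.04 to 14.6 ± 1.19 CPM (SD, n = 5 and 6). Its interaction was 0.15 (95% interval -0.04 to 0.33, edgeR unadjusted p = 0.113, adjusted p = 0.962). Member 9 went the other way, as it fell by 7.8% and fell by 13.5%, with an interaction of -0.09 (95% interval -0.23 to 0.04, edgeR unadjusted p = 0.16, adjusted p = 0.962). Member 11 fell by 13.8% and fell by 19.6%, with an interaction of -0.10 (95% interval -0.31 to 0.10, edgeR unadjusted p = 0.303, adjusted p = 0.962). None of the 3 differences passed, and the intervals still allow a member's step in one state to be well above that in the other.

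**Figure D2:**
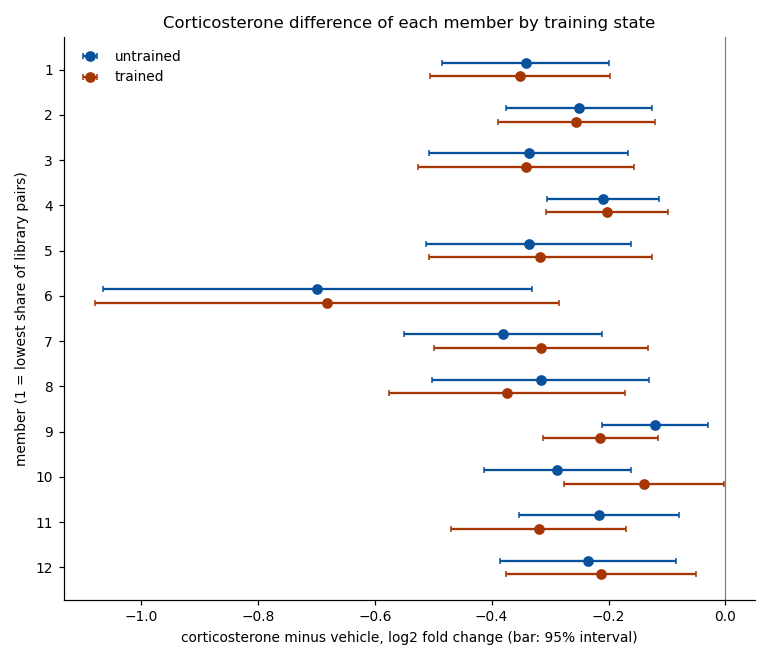
Log2 fold change of corticosterone against vehicle (horizontal axis) with its 95% interval for each member (vertical axis, in order of the share of pairs), in untrained (blue) and trained (brown) libraries. The paired points of members 1 to 6 nearly coincide, and the largest gap, 0.15 at member 10, is smaller than its interval.

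The training effect averaged over treatment was not selected on directly, but the pair rule also compares libraries across the states. That favours genes with small training shifts, so nothing is read from the members' counts here. The training effect ran from -0.11 to 0.07 on the log2 scale over the members, with 9 below and 3 above 0. edgeR called 0 members and 0% of all genes, and 0 of 12 members had an unadjusted p under 0.05 against 3.27% of all genes (485 of 14838). DESeq2 called 0 genes as well. The smallest p belonged to member 11 (log2 fold change -0.09, edgeR unadjusted p = 0.076, adjusted p = 0.999), followed by member 8 (-0.11, edgeR unadjusted p = 0.111) and member 5 (-0.10, edgeR unadjusted p = 0.118).

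The spread between libraries of a group was compared next, as the SD of log2 CPM with a prior count of 2. Its median over the members was 0.12 with vehicle and 0.12 with corticosterone when untrained, and 0.10 with vehicle and 0.14 with corticosterone when trained. Over the 13796 genes the medians were 0.12, 0.13, 0.12 and 0.13, in that order. Corticosterone libraries were wider than vehicle libraries for 3 of 12 members in untrained and for 8 of 12 in trained rats, against 56.0% and 57.7% of all genes. Pooled over treatment, 6 of 12 members were wider in trained libraries, against 51.1% of all genes, with a median ratio of 1.02 against 1.01. No test was made over the list, because members are not replicates and the rule favours narrow groups.

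Single members departed from this balance in both directions. Member 7 was 2.12 times as variable in trained as in untrained libraries (SD 0.18 and 0.09), and its 6 untrained corticosterone libraries stayed between 9.85 and 10.7 CPM. That ratio was 1.52 without trained corticosterone replicate 28 and 2.64 without untrained vehicle replicate 32. Member 12 followed with a ratio of 1.63, which rested on trained corticosterone replicate 3, as it was 0.903 without that library. Member 6 was the most extreme the other way, with a ratio of 0.348 (SD 0.40 in untrained and 0.14 in trained libraries). Measured against the spread, the fall of member 6 was 1.73 SD in untrained and 4.85 SD in trained libraries, while that of member 7 was 4.44 SD and 1.74 SD. The log2 fold changes of member 6 were alike, -0.70 untrained and -0.68 trained, so its multiples differ through the SD. At its mean count, counting error alone gives a coefficient of variation of 15.9%, while its trained vehicle libraries had 2.54%.

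**Figure D3:**
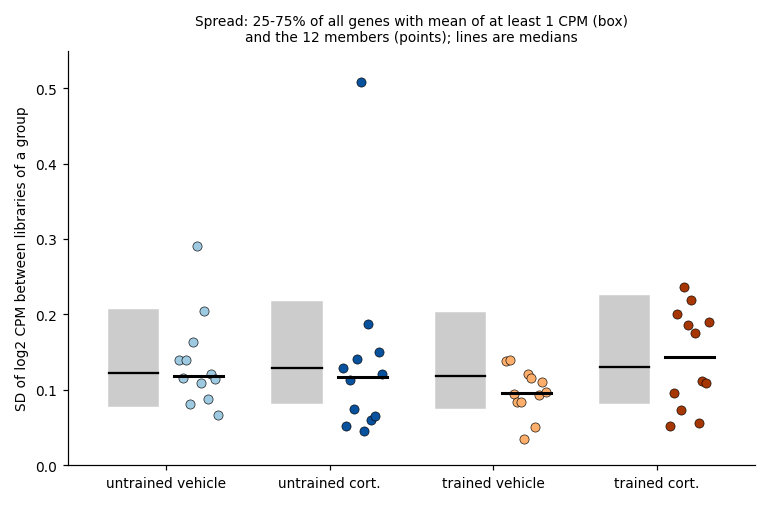
SD of log2 CPM between the libraries of a group (vertical axis) in the 4 groups. Grey boxes hold the middle of the 13796 genes, points are the 12 members and lines are medians; the members' median is lowest in trained vehicle (0.10) and highest in trained corticosterone (0.14), and the single high point is member 6 in untrained corticosterone (0.51).

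Reversed pairs were unevenly shared among libraries. Over the 12 members there were 69 in 1728 pairs, of which 21 of 504 fell within untrained, 14 of 360 within trained and 34 of 864 across the states. Untrained vehicle replicate 27 took part in 17, untrained corticosterone replicate 9 in 15 and trained corticosterone replicate 3 in 13, whereas trained corticosterone replicate 8 took part in 0 and lay below every vehicle library in all 12 members. The median of the members relative to their vehicle mean ran from -0.10 to 0.18 (log2) over vehicle libraries and from -0.41 to -0.19 over corticosterone libraries, a gap that the choice of members fixes.

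Among untrained vehicle libraries the members tended to be high or low in the same library. Replicate 32 was above the median of its group for 11 of 12 members, and replicates 22 and 27 were above it for 0 of 12. Among trained vehicle libraries replicate 10 was above the median for 9 of 12 members and replicate 35 for 2 of 12. In groups of 7 or 5 libraries only a minority can lie above the group median for any gene. The share of all genes above it was not counted, so whether this order is particular to the members cannot be told. Taken by increasing total count, the 7 untrained vehicle libraries (13996453 to 16372332) had 7, 11, 6, 0, 8, 4 and 0 members above the median. The 5 trained vehicle libraries (13760331 to 16239656) had 4, 9, 6, 3 and 2. The part of depth in this shared order was not tested. Sample 41 (untrained vehicle) took part in 2 reversed pairs and lay above every corticosterone library in 10 of 12 members.

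**Figure D4:**
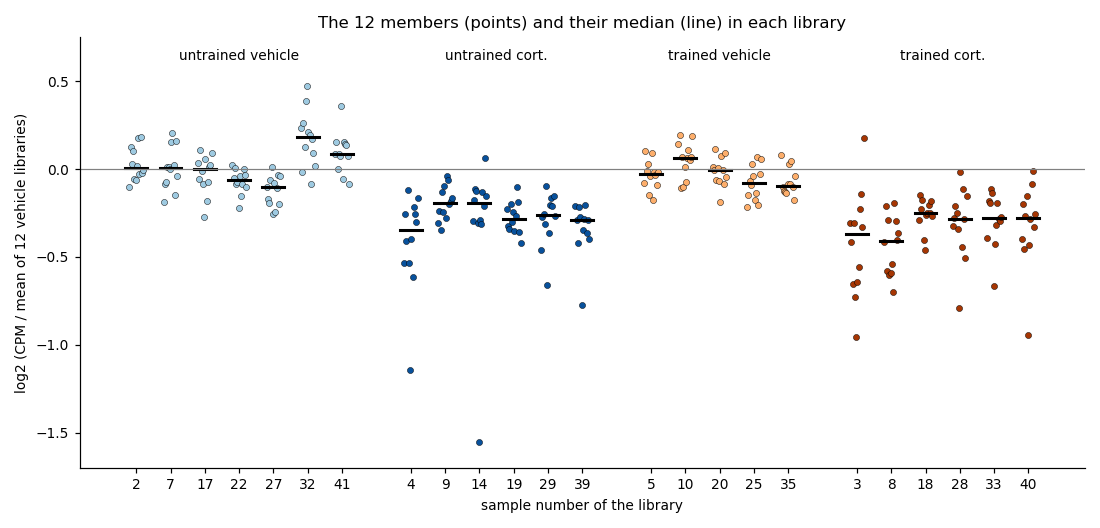
Log2 ratio of each member's CPM to its mean over the 12 vehicle libraries (vertical axis) in each library (horizontal axis, sample numbers, by group). Points are members and the line is their median; the corticosterone medians lie between -0.41 and -0.19, and the medians of untrained vehicle replicates 22 and 27 are -0.06 and -0.10, against 0.18 for replicate 32.

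To see how far such a list carries over to libraries that did not choose it, the same rule was applied within 1 training state and the chosen genes were followed in the other. Over untrained libraries it chose 92 genes, 8 of them members. In trained libraries 56 of the 92 (60.9%) were lower with corticosterone, against 48.3% of all genes tested. Their median log2 fold change was -0.21 where chosen and -0.04 where followed, against 0.00 for all genes. An unadjusted p under 0.05 in the lower direction was reached by 13 (14.1%), against 3.4% of all genes, and none (0) was called by edgeR after adjustment.

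In the other direction, the rule chose 163 genes over trained libraries, 9 of them members. In untrained libraries 113 (69.3%) were lower, against 48.5% of all genes, with a median log2 fold change of -0.21 where chosen and -0.04 where followed. An unadjusted p under 0.05 in the lower direction was reached by 28 (17.2%), against 2.86% of all genes, and 2 were called (members 1 and 4). In both directions the median was much nearer to 0 in the libraries that had no part in the choice. The share that was lower ranged from 53.3% to 75% and from 59.7% to 79.9% when single libraries were left out.

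The mirror rule, which asks for corticosterone above vehicle in at least 92% of pairs, carried over further in these values. Of 140 genes chosen over untrained libraries, 130 (92.9%) were higher in trained libraries (median log2 fold change 0.19), against 7664 of all 14838 genes. Of 197 chosen over trained libraries, 156 (79.2%) were higher in untrained libraries (median 0.10), against 7637 of all 14838 genes. Over all pairs the mirror rule found 71 of the 13796 genes. Their median log2 fold change was 0.45 and 4 genes changed at least 2-fold, against -0.30 and 0 genes among the 12 members. The difference between the lists was not tested.

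**Figure D5:**
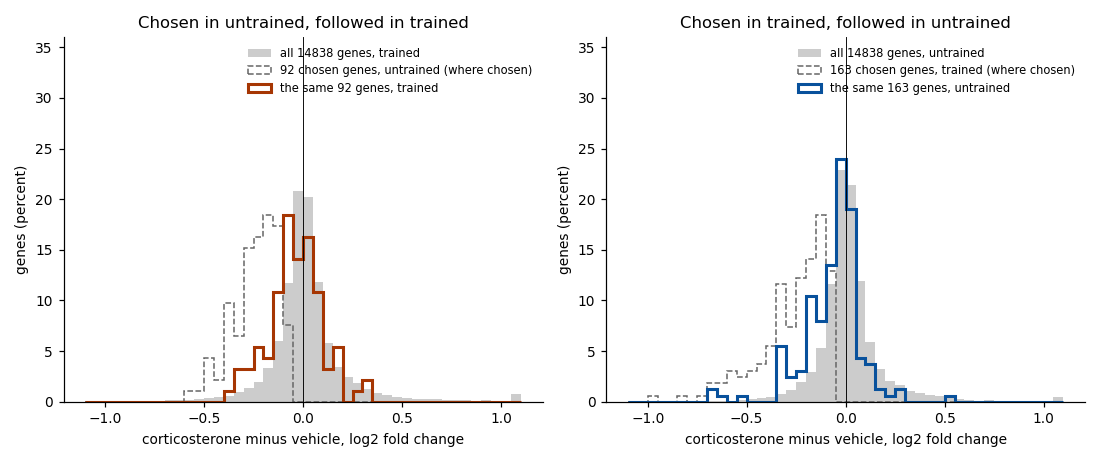
Percent of genes (vertical axis) by log2 fold change of corticosterone against vehicle (horizontal axis, bins of 0.05, values beyond the axis counted in the outermost bins). Dashed lines show the genes where they were chosen (median -0.21 in both panels), solid lines the same genes in the other training state (median -0.04 in both panels) and grey bars all 14838 genes in that state.

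The limit of 8% cut through a continuous range. Just inside it were member 11 and member 12 with 11 reversed pairs each and member 10 with 10. Just outside were genes with 12, 12 and 13 reversed pairs. These 3 fell from 68.3 ± 4.15 to 62.3 ± 2.81 CPM, from 30.7 ± 3.97 to 24.9 ± 3.56 CPM and from 54.1 ± 3.49 to 47.7 ± 4.36 CPM (SD, n = 12 each). In all, 14 genes lay between 8% and 10%. A limit of 4% kept 6 members, and a limit of 12% gave 42 genes. Members 1 to 10 met the rule whichever single library was left out, while member 11 met it in 11 and member 12 in 12 of the 24 cases. In the same 24 cases 43 other genes met the rule at least once, and the list grew to 19 genes without untrained vehicle replicate 22.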

How the data were processed

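Raw counts were deposited by the authors in a single table of 24 sample columns, which lists 32883 Ensembl identifiers and 5 rows of unassigned reads. STAR 2.7.0b, HTSeq 0.6.1, FastQC, MultiQC and build rn6 are named in the submitters' processing notes. Annotation release and strand setting: not given in the sources used here. Counts of overlapping, antisense and near-identical genes are therefore uncertain. The unassigned rows held 39.0% of the column totals on average and stayed out of library sizes and tests. Columns were matched to samples by title. Every within-group pair of libraries differed by more than sampling noise (smallest chi-square per degree of freedom 4.28).

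CPM is a count divided by the column sum, times 1e6. Counts were tested with edgeR 4.0.16 in R 4.3.3 (filterByExpr, TMM, glmQLFit and glmQLFTest, 4 group means, 14838 genes), with Benjamini-Hochberg adjustment. SE and 95% intervals come from the quasi-likelihood F statistic. Intervals cover library spread and counting, but not a bias that all libraries share, such as one from the copying of molecules by PCR. The scripts were tested on simulated data. Alternatives were DESeq2 1.42.0, RLE factors, no filter on low counts, covariates and leaving out single libraries. The members and gene lists were chosen with earlier results of these data known. Values were to be named for up to 25 members of lowest pair share, which covers all 12. Gene lists, cell type markers and promoter motifs, which need gene names, were not analysed here.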

Additional observations from a re-analysis of the deposited data

Results flagged for a closer look

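Of 48 sets of values (12 members in 4 groups), 2 held a library that stood apart from its group by Dixon's test at the 95% level (gap to the nearest library over the whole range), where chance gives about 1 in 20. Member 5 stood at 49.6 CPM in untrained vehicle replicate 32 (715 reads), while the other untrained vehicle libraries lay between 35.7 and 40.1 CPM. Member 12 stood at 45.4 CPM in trained corticosterone replicate 3 (716 reads), while the other trained corticosterone libraries lay between 31.3 and 36.1 CPM.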

How the results depend on the processing

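No paired or blocked analysis was made, because the labels state no pairing and the sample numbers are not shared between groups. Some runs of consecutive numbers, such as 2 to 5, held 1 library of each group. Whether such runs were blocks is not stated and was not tested. Interaction and training called 0 genes in each of 29 alternatives. The member count was 6 at 4% and 42 at 12% of pairs, and 10 to 19 without single libraries, with 19 without untrained vehicle replicate 22. Genes called lower, 37 averaged over training, were 58 with DESeq2, 74 with the first component, 8 with total count and 20 to 39 without single libraries, the lowest without untrained corticosterone replicate 39. They fell below 25 too without untrained vehicle replicates 2 (24) and 7 (22), trained vehicle replicate 25 (24) and trained corticosterone replicate 8 (22). In untrained libraries, 5 became 16 with DESeq2, 17 with the first component, 2 with only those groups, and 0 to 10 without single libraries (0 without untrained vehicle replicate 32 or untrained corticosterone replicate 29, 1 without untrained vehicle replicate 41, 2 without untrained vehicle replicates 2 or 7 or untrained corticosterone replicate 39, 3 without untrained vehicle replicate 17 or untrained corticosterone replicate 9, 8 without untrained vehicle replicate 27 and 10 without trained corticosterone replicate 3). In trained libraries, 0 became 15 with DESeq2, 14 with the first component, and 0 to 3 without single libraries. Of genes chosen in untrained libraries, 56 lower in trained libraries became 21 at 4%, 123 at 12%, and 42 to 82 without single libraries. Of those chosen in trained libraries, 113 became 170 at 12%, and 101 to 202 without single libraries (182 without trained vehicle replicate 10, and 172, 202, 192 and 184 without trained corticosterone replicates 3, 18, 33 and 40). The number of genes chosen differed between these settings, and the share that was lower moved too. Without single libraries that share ranged from 53.3% to 75% and from 59.7% to 79.9%. Members with the larger fall in trained libraries numbered 3 to 8 (3 without untrained vehicle replicate 7 or 27) and those with the wider spread there 4 to 7 without single libraries. For member 12 the corticosterone call was lost in 19 of 29 alternatives, with edgeR adjusted p up to 0.215, and for members 5, 6, 8, 10 and 11 only with total count (edgeR adjusted p = 0.0512, 0.0562, 0.0937, 0.185 and 0.0505). Depth limits member 6 most, with 17 to 65 reads. Causes were not tested.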
